A study of Gallus gallus with 12 samples.

Results

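The genes described here are 9 genes of matrix remodelling, namely the matrix metalloproteinases MMP1, MMP2, MMP7, MMP9, MMP11, MMP13 and MMP27 and the tissue inhibitors of metalloproteinases TIMP2 and TIMP3. They were chosen by gene symbol, with earlier results of these data known. Of the 9 symbols, 8 were carried by a row of the expression table, which lists 24353 genes, and no row carried the symbol MMP7. Of these 8 genes, 6 reached a mean of 0.1 FPKM (fragments per length of gene in kilobases, scaled to the number of mapped fragments) and were tested, and MMP1 and MMP13 stayed below it and are given by their values only.

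The libraries came from feather follicles of the nape of F3 chickens of a Huiyang Bearded × White Leghorn cross, with 3 libraries each from yellow birds of 11 weeks, yellow birds of 7 weeks, white birds of 11 weeks and white birds of 7 weeks. The follicle was the plucked base of the feather, which holds both the epithelium and the mesenchymal pulp. All birds carried CC at the recessive white locus and s/W at the Silver locus, the genotype of hens. They carried II or Ii at the Dominant white locus, which blocks eumelanin, with both genotypes in every group but the white birds of 11 weeks, all of which were II. No agent was given. Whether libraries of 2 ages that share a label came from the same bird is not clear from the sources used here. The p-values measure the spread between these libraries.

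Matrix metalloproteinases are zinc endopeptidases that are made as inactive proenzymes and cut collagens, laminins and other proteins of the extracellular matrix once the propeptide is removed. Tissue inhibitors of metalloproteinases bind the active site of these enzymes, and TIMP3 also inhibits several proteases of the ADAM and ADAMTS families. In feathers, as in other skin appendages, the matrix between the epithelium and the pulp is rebuilt while the follicle grows and regresses.

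The order of the levels was set by 3 genes. At 11 weeks, TIMP2 averaged 134 ± 18.8 FPKM, MMP2 averaged 109 ± 9.28 FPKM and TIMP3 averaged 35.0 ± 8.34 FPKM (SD, n = 6 libraries). The ranges of TIMP2 and MMP2 overlapped at 11 weeks, and those of MMP2 and TIMP3 did not. MMP27 averaged 6.23 ± 1.92 FPKM and MMP11 averaged 5.05 ± 0.921 FPKM at 11 weeks, and these overlapped. MMP9, MMP13 and MMP1 lay below 0.5 FPKM in every library. At 7 weeks the order was TIMP2 with 179 ± 20.1 FPKM, MMP2 with 54.5 ± 17.5 FPKM, TIMP3 with 9.43 ± 2.70 FPKM, MMP11 with 4.85 ± 1.16 FPKM and MMP27 with 2.79 ± 0.436 FPKM. In that order only MMP11 and MMP27 overlapped among neighbours. FPKM are per length of gene, so the levels of different genes are set side by side as a rough guide only. The age change went with the span of the locus, as given below.

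**Figure D1:**
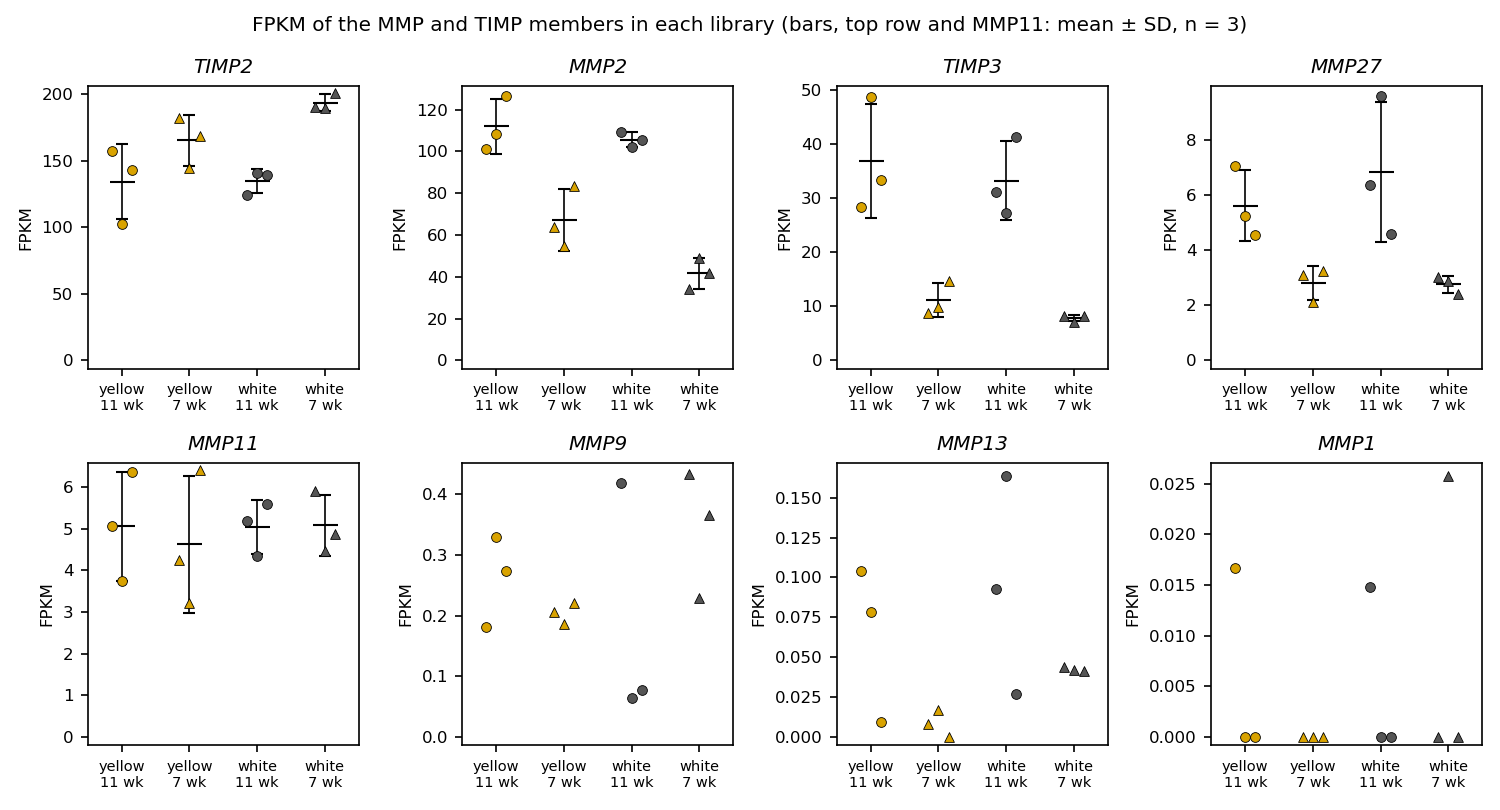
FPKM (y axis, from 0, a scale of its own in each panel) of the 8 genes found, with 1 point per library and yellow 11 weeks, yellow 7 weeks, white 11 weeks and white 7 weeks on the x axis. Bars give the mean ± SD of 3 libraries for the 5 genes above a mean of 1 FPKM, and MMP9, MMP13 and MMP1 are shown as points only. The 6 libraries of 11 weeks lie above the 6 of 7 weeks for MMP2, TIMP3 and MMP27, and TIMP2 averages 134 FPKM at 11 weeks and 179 FPKM at 7 weeks.

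The comparison of the ages asked which of these genes differed between follicles of 11 and of 7 weeks. TIMP3, MMP27 and MMP2 rose at 11 weeks, and none of the 6 tested genes fell, where a call in the mean of both colours needed an adjusted p no higher than 0.05 and a log2 fold change of 1 or more in size. Of all 14553 genes tested, 25% were called higher and 2.96% lower in the same comparison (28% in either direction). In yellow follicles alone TIMP3 was called, beside 22.5% of all genes called higher and 2.14% lower (24.7% in all), and in white follicles alone TIMP3, MMP2 and MMP27 were called, beside 25.9% higher and 4.34% lower (30.2% in all). The same 3 genes were the only ones of the 8 whose 6 libraries of 11 weeks all lay above the 6 of 7 weeks, a separation that 37.2% of all tested genes showed upwards and 10.7% downwards. The median log2 fold change of all tested genes was 0.44, so the libraries were not centred on each other. Relative to that median, TIMP3 changed by 1.45, MMP27 by 0.66, MMP2 by 0.61, MMP11 by -0.37, MMP9 by -0.74 and TIMP2 by -0.86 (log2). Fold changes are on the log2(FPKM + 0.1) scale and are given with the SE of the fit.

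The gelatinase MMP2, which cuts denatured collagen and type IV collagen of basement membranes, was the most abundant of the metalloproteinases among the 9 genes. In yellow follicles MMP2 stood at 101, 108 and 127 FPKM at 11 weeks, against 63.9, 54.5 and 83.4 FPKM at 7 weeks. In white follicles it stood at 110, 102 and 105 FPKM at 11 weeks, against 34.3, 49.1 and 41.8 FPKM at 7 weeks. The ages did not overlap in either colour, and the white libraries of 7 weeks were the lowest of all. The log2 fold change was 1.05 ± 0.11 over both colours (2.07-fold, adjusted p = 1.13e-05 from limma). In yellow follicles it was 0.75 ± 0.16 (adjusted p = 0.00249) and missed the fold threshold, and in white follicles it was 1.35 ± 0.16 (adjusted p = 5.19e-05) and passed both thresholds. A two-sided exact permutation test of the ages within colours gave p = 0.005, the smallest that its 400 relabellings can give. This p is unadjusted, and any gene whose ages separate in the same direction within both colours gets it. It therefore adds nothing to the separation. Of all tested genes, 37.2% lay wholly higher and 10.7% wholly lower at 11 weeks. MMP2 lay close to the fold threshold. It fell short of it without the white 7-week library 1 (0.99) or the yellow 7-week library 3 (0.98), when libraries were scaled by the median ratio of their genes (median-of-ratios scaling, 0.61), and when each library was corrected for the span of the genes' loci, introns included, a correction chosen after seeing the data (0.20, adjusted p = 0.0466). In white follicles alone it fell short of it under median-of-ratios scaling (0.86) and the span correction (0.42) and not without either library, and in yellow follicles the span correction left -0.02.

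TIMP3, an inhibitor that is bound to the extracellular matrix, changed most of the 6 tested genes. Yellow follicles had 28.4, 48.6 and 33.3 FPKM of TIMP3 at 11 weeks, against 8.71, 9.83 and 14.6 FPKM at 7 weeks. White follicles had 31.1, 27.2 and 41.3 FPKM at 11 weeks, against 8.21, 7.07 and 8.13 FPKM at 7 weeks. The lowest library of 11 weeks was thus above the highest of 7 weeks in both colours. The log2 fold change was 1.89 ± 0.16 over both colours (3.71-fold, adjusted p = 3.19e-06 from limma), 1.72 ± 0.23 in yellow follicles (adjusted p = 0.000224) and 2.06 ± 0.23 in white follicles (adjusted p = 4.06e-05). The exact permutation p was 0.005. Over both colours TIMP3 passed both thresholds under each of the 24 alternative settings, with log2 fold changes between 1.06 and 2.00, the lowest with the correction for locus span. That correction took the change in yellow follicles to 0.97, below the fold threshold.

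MMP27 is a little studied metalloproteinase of the gene cluster on chromosome 1 that also holds the collagenases. Its FPKM in yellow follicles were 7.05, 5.25 and 4.55 at 11 weeks, against 3.10, 2.11 and 3.23 at 7 weeks. In white follicles they were 6.37, 9.59 and 4.58 at 11 weeks, against 3.01, 2.87 and 2.42 at 7 weeks. White 11-week library 3 was the highest, and the ages did not overlap. The log2 fold change was 1.10 ± 0.19 over both colours (2.14-fold, adjusted p = 0.000328 from limma), 0.97 ± 0.27 in yellow follicles (adjusted p = 0.0101), where it missed the fold threshold, and 1.22 ± 0.27 in white follicles (adjusted p = 0.00227). The exact permutation p was 0.005. The call over both colours was lost without white 11-week library 3 (0.96), with 1 FPKM instead of 0.1 added before taking logs (0.90), and under median-of-ratios scaling (0.66), quantile normalization, which gives every library the same distribution (0.37, adjusted p = 0.137), and the locus span correction (0.85). In white follicles alone the change was 0.95 without white 11-week library 3, 0.73, 0.48 and 0.95 under these 3 scalings, and in yellow follicles it passed 1 without any one of 4 libraries, reaching 1.11 at most.

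TIMP2, which inhibits metalloproteinases and in mammals also takes part in the activation of the MMP2 proenzyme, went the other way without being called on the deposited scale. Yellow follicles had 157, 102 and 143 FPKM of TIMP2 at 11 weeks, against 182, 145 and 169 FPKM at 7 weeks. White follicles had 124, 141 and 139 FPKM at 11 weeks, against 190, 189 and 201 FPKM at 7 weeks. The ages overlapped in yellow follicles and not in white ones. The log2 fold change over both colours was -0.42 ± 0.10 (adjusted p = 0.00296 from limma), short of the fold threshold, and the exact permutation p was 0.01. It was -0.32 ± 0.14 in yellow follicles (adjusted p = 0.0799) and -0.52 ± 0.14 in white follicles (adjusted p = 0.00772). Its sign stayed negative under each of the 24 alternatives, between -0.87 and -0.11, and with quantile normalization the adjusted p was 0.307. In white follicles median-of-ratios scaling gave -1.02 (adjusted p = 7.34e-05), past both thresholds.

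**Figure D2:**
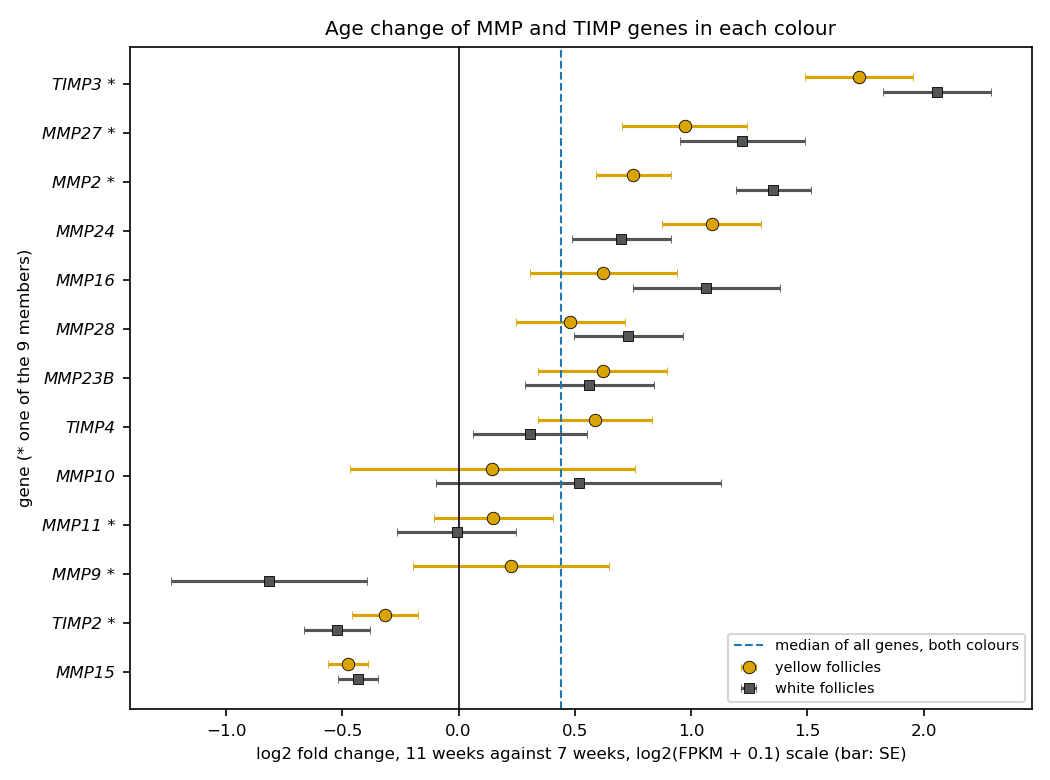
Log2 fold change of 11 weeks against 7 weeks (x axis, log2(FPKM + 0.1) scale, bars give the SE) for the 13 tested MMP and TIMP genes (y axis), with yellow follicles as circles and white follicles as squares, and the median of all genes dashed at 0.44. TIMP3 lies farthest right at 1.72 in yellow and 2.06 in white follicles. TIMP2 and MMP15 lie below 0 in both colours, and MMP11 lies at 0.15 and -0.01.

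MMP11, stromelysin-3, which is secreted in active form after furin cleavage, showed no age change on the deposited scale that could be told from the spread. Its FPKM were 5.06, 3.75 and 6.36 in yellow follicles of 11 weeks, against 4.25, 3.21 and 6.42 at 7 weeks. White follicles had 5.18, 4.34 and 5.61 FPKM at 11 weeks, against 5.90, 4.46 and 4.88 FPKM at 7 weeks. The log2 fold change over both colours was 0.07 ± 0.18 (adjusted p = 0.744 from limma, exact permutation p = 0.705). It was negative under median-of-ratios scaling (-0.37), quantile normalization (-0.61) and the locus span correction (-0.21). All 24 alternatives stayed short of the fold threshold over both colours, but their lowest adjusted p from limma was 0.00999. In white follicles the lowest was 0.0392, with changes down to -0.67. The row named MMP11 spans bases 8274523 to 8282968 of chromosome 15 and shares 135 bases with SMARCB1, whose FPKM ranged over 31.2 to 35.9 at 11 weeks and 43.6 to 48.1 at 7 weeks. Whether the counting used strand is not given in the sources used here, so reads of the shared bases cannot be assigned to either gene, and the RefSeq table used for names lists MMP11 only as a synonym of SMARCB1.

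MMP9, the gelatinase carried by neutrophils (heterophils in birds), macrophages and osteoclasts, was near the filter. Yellow follicles had 0.181, 0.330 and 0.273 FPKM of MMP9 at 11 weeks, against 0.206, 0.186 and 0.221 FPKM at 7 weeks. White follicles had 0.418, 0.0634 and 0.0777 FPKM at 11 weeks, against 0.434, 0.229 and 0.366 FPKM at 7 weeks. The log2 fold change over both colours was -0.29 ± 0.30 (adjusted p = 0.401 from limma, exact permutation p = 0.375). White 11-week library 1 stood apart from the others of its group. Without it, the change in white follicles was -1.35 and passed both thresholds, against -0.81 ± 0.42 with it (adjusted p = 0.118). Quantile normalization also called MMP9, at -1.09 over both colours, and median-of-ratios scaling called it in white follicles, at -1.15. The same library had the highest summed FPKM of 7 heterophil markers, 37.9, where the other libraries of 11 weeks had 4.16 to 13.8 and those of 7 weeks 2.44 to 14.0. Its sum of 3 B cell markers was 171 FPKM, the highest of all libraries. White 7-week library 1 had the highest MMP9 of all, 0.434 FPKM, with a heterophil sum of 6.94. Its sum of 7 macrophage and osteoclast markers, 226 FPKM, was the highest of all libraries. Yellow 7-week library 3 had the highest heterophil sum of its age, 14.0, and the lowest MMP9 of its age, 0.186 FPKM. Its macrophage and osteoclast sum, 138 FPKM, was the lowest of its age. The match did not hold throughout. That sum was 217 FPKM in yellow 7-week library 4, with MMP9 at 0.221 FPKM. White 11-week library 1 had a sum of 135 FPKM, with MMP9 at 0.418 FPKM. The part of heterophils, macrophages, osteoclasts and B cells in the MMP9 level was not tested.

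The collagenases were barely detected. MMP13 had 0.104, 0.0782 and 0.00898 FPKM in yellow follicles of 11 weeks, against 0.00811, 0.0165 and 0 FPKM at 7 weeks. In white follicles MMP13 had 0.0929, 0.164 and 0.0268 FPKM at 11 weeks, against 0.0435, 0.0418 and 0.0415 FPKM at 7 weeks. The ages overlapped in both colours, and the exact permutation p was 0.07. MMP1 was listed at 0 in 9 of the 12 libraries, with 0.0167 FPKM in yellow 11-week library 1, 0.0148 FPKM in white 11-week library 1 and 0.0258 FPKM in white 7-week library 2. Read counts per gene were not used here, so no limit was set on what a listed 0 allows.

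Ratios between these genes within a library do not change when a whole library is multiplied by a factor, as in median-of-ratios scaling. They do change with quantile normalization and the locus span correction. MMP2 over TIMP2 was 0.645 to 1.06 at 11 weeks and 0.181 to 0.495 at 7 weeks. TIMP3 over TIMP2 was 0.181 to 0.474 at 11 weeks and 0.0373 to 0.0868 at 7 weeks. Neither ratio overlapped between the ages, so both MMP2 and TIMP3 were higher relative to TIMP2 at 11 weeks in all 6 libraries. The share of all genes whose ratio to TIMP2 separates the ages was not computed, so this is not shown to be particular to them. On FPKM alone, 37.2% of all tested genes lay wholly higher at 11 weeks. MMP27 over TIMP2 was 0.0318 to 0.0682 at 11 weeks and 0.0120 to 0.0192 at 7 weeks, again without overlap. MMP2 over TIMP3 was 2.23 to 3.81 at 11 weeks and 4.18 to 7.33 at 7 weeks, so TIMP3 stood higher relative to MMP2 at 11 weeks than at 7 weeks. MMP27 over MMP2 overlapped, with 0.0359 to 0.0938 at 11 weeks and 0.0386 to 0.0877 at 7 weeks. Sums were taken over the metalloproteinases named at the start, without MMP15 and the other further genes described below. The summed FPKM of these named metalloproteinases was 123 ± 13.0 in yellow follicles of 11 weeks and 74.9 ± 16.9 in those of 7 weeks. In white follicles it was 118 ± 3.24 at 11 weeks and 50.0 ± 6.54 at 7 weeks (SD, n = 3 each). MMP2 gave 83.2% to 91.0% of these sums. MMP15, which is not in them, averaged 89.8 FPKM at 11 weeks and 123 FPKM at 7 weeks. The sums and the share of MMP2 thus do not describe all metalloproteinases in the libraries. TIMP2 and TIMP3 summed to 171 ± 17.8 FPKM in yellow follicles of 11 weeks and 176 ± 19.2 FPKM in those of 7 weeks. In white follicles they summed to 168 ± 12.6 FPKM at 11 weeks and 201 ± 6.90 FPKM at 7 weeks. The age change of MMP2 over TIMP2 was 1.47 on the log2 scale as deposited, 1.38 with quantile normalization and 0.86 with the span correction. That of TIMP3 over TIMP2 was 2.31, 1.82 and 1.72 in the same order. MMP27 over TIMP2 changed by 1.52 as deposited and by 0.47 with quantile normalization, and MMP27 over MMP2 took either sign, with 0.04 as deposited, -0.91 with quantile normalization and 0.65 with the span correction. No test was run on the ratios and sums.

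**Figure D3:**
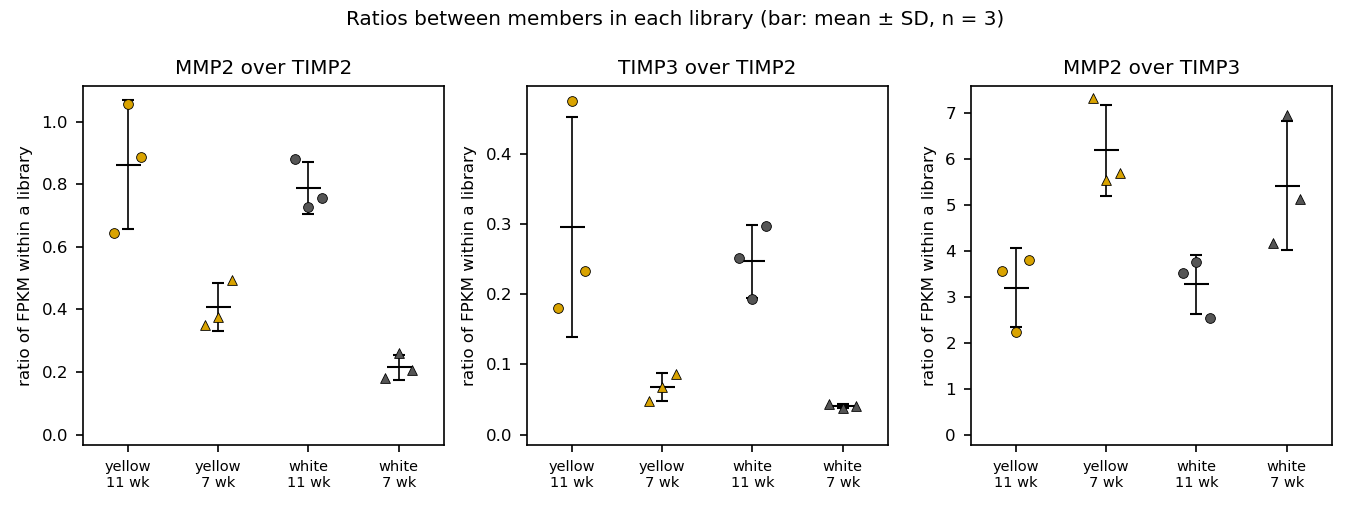
Ratio of the FPKM of 2 genes within a library (y axis, from 0) in yellow 11 weeks, yellow 7 weeks, white 11 weeks and white 7 weeks (x axis), with 1 point per library and bars for the mean ± SD of 3 libraries. MMP2 over TIMP2 lies at 0.645 to 1.06 at 11 weeks and 0.181 to 0.495 at 7 weeks, and MMP2 over TIMP3 lies lower at 11 weeks than at 7 weeks.

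The comparison of the colours asked whether any of these genes differed between yellow and white follicles. None of the 6 tested genes was called in the mean of both ages, where 0.206% of all tested genes were called (0.103% higher and 0.103% lower). MMP2 had the largest difference, 0.38 ± 0.11 (adjusted p = 0.164 from limma), followed by TIMP3 with 0.30 ± 0.16 (adjusted p = 0.354). The difference was -0.13 ± 0.10 for TIMP2, -0.12 ± 0.19 for MMP27, -0.10 ± 0.18 for MMP11 and 0.01 ± 0.30 for MMP9. At 11 weeks the 3 yellow libraries overlapped the 3 white ones for all 8 genes, while 7.96% of all tested genes lay wholly above and 5.7% wholly below. At 7 weeks the yellow libraries lay wholly above the white ones for MMP2 and TIMP3 and wholly below them for TIMP2, MMP9 and MMP13. Of all tested genes, 11.9% lay wholly above and 7.77% wholly below at 7 weeks. For MMP2 the yellow follicles of 7 weeks averaged 67.3 ± 14.7 FPKM and the white ones 41.7 ± 7.41 FPKM. For TIMP3 they averaged 11.1 ± 3.15 FPKM and 7.80 ± 0.636 FPKM in white ones (SD, n = 3 each). Yellow 7-week library 4, which was the highest of its group for MMP2 and TIMP3, was also the library of 7 weeks nearest to those of 11 weeks, with a median-of-ratios scaling factor of 0.993, against 1.13 to 1.22 at 11 weeks and 0.808 to 0.891 for the other libraries of 7 weeks.

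The age change itself was compared between the colours with an interaction term. The difference of the log2 fold changes, yellow minus white, was -0.60 ± 0.23 for MMP2 (limma, adjusted p = 0.738). It was 1.04 ± 0.60 for MMP9 (adjusted p = 0.744), and for the other 4 tested genes it lay between -0.33 and 0.21 with adjusted p of at least 0.851. No gene of all those tested was called for such a difference by limma, while 6.69% (973 genes) had an unadjusted p under 0.05, so MMP2 and MMP27 passing the threshold in white and not in yellow follicles is not shown to be a difference between the colours. With any single library left out the difference for MMP2 lay between -0.74 and -0.44.

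Among the further metalloproteinases and inhibitors, 7 of 19 listed genes were found by symbol, and all 7 were tested. None passed both thresholds in the age change over both colours, beside 28% of all tested genes. The activator of MMP2 in mammals, MMP14, was not among the symbols found. MMP15, a membrane-type metalloproteinase, was the most abundant of them, with 74.5 to 97.1 FPKM at 11 weeks and 112 to 129 FPKM at 7 weeks. It changed by -0.45 ± 0.06 on the log2 scale (limma, adjusted p = 5.00e-05). Its ages did not overlap, a separation that 10.7% of all tested genes showed downwards. The membrane-type genes MMP24 (0.89 ± 0.15, adjusted p = 0.000271) and MMP16 (0.84 ± 0.22, adjusted p = 0.00555) went the other way. Within a colour, MMP24 passed both thresholds in yellow follicles (1.09 ± 0.21, adjusted p = 0.00151) and MMP16 in white follicles (1.07 ± 0.32, adjusted p = 0.0125). Of all tested genes, 22.5% were called higher in yellow and 25.9% in white follicles. MMP28 changed by 0.61, MMP23B by 0.59, TIMP4 by 0.45 and MMP10 by 0.33. The median of the 7 genes was 0.59, beside 0.44 for all tested genes, and it was -0.16 with quantile normalization and -0.04 with the locus span correction. Their summed FPKM, MMP15 included, lay wholly lower at 11 weeks, with 90.4 to 116 against 121 to 138 at 7 weeks.

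Regulators of metalloproteinase activity were measured by 18 of 24 listed genes, of which 8 rose, 1 fell and 9 did not pass the test, with a median of 0.73. Of all tested genes, 25% were called higher and 2.96% lower. THBS2, a matricellular protein through which MMP2 is cleared in mice, rose by 2.68 ± 0.24 (adjusted p = 3.37e-06 from limma). The proteoglycan SPOCK1 rose by 2.14 ± 0.35, and RECK, a membrane-anchored inhibitor of metalloproteinases, rose by 1.93 ± 0.23. PCSK6, a proprotein convertase, rose by 1.57 ± 0.16, and SPOCK2 fell by 1.03 on the log2 scale. Under median-of-ratios scaling 5 of the 18 were higher and 2 lower, beside 15.8% higher and 10.4% lower of all genes, and under the locus span correction 2 were higher and 0 lower, beside 12.2% and 4.51%.

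The related ADAM and ADAMTS proteases, several of which TIMP3 inhibits, had 17 of 24 tested genes higher, 0 lower and a median of 1.69, beside 25% higher and a median of 0.44 for all tested genes. ADAMTS7 rose by 2.33 ± 0.26, ADAMTS14, a procollagen N-propeptidase, by 2.28 ± 0.27, ADAM19 by 2.21 ± 0.25 and ADAMTS8 by 2.08 ± 0.22. The summed FPKM of this list did not overlap between the ages, with 115 to 153 at 11 weeks and 46.8 to 73.3 at 7 weeks. Among single genes, 37.2% of all those tested lay wholly higher at 11 weeks. Under the locus span correction 6 of the 24 were higher and the median was 0.73, beside 12.2% and -0.02 for all genes, and under median-of-ratios scaling 14 were higher, beside 15.8%.

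Of 25 matrix substrates, 9 rose (36%, beside 25% of all tested genes), 0 fell and the median was 0.83. The largest rises were those of NID1 (2.23 ± 0.23), COL4A2 (2.02 ± 0.22), LAMC1 (1.97 ± 0.13) and COL6A1 of the microfibrillar type VI collagen (1.93 ± 0.24). Of the 25 genes 3 had negative changes, the laminin gene LAMB1 among them (-0.42 ± 0.12, adjusted p = 0.00894 from limma). Under quantile normalization 10 were higher (40%, beside 10.6% of all genes) and the median was 0.70. Under median-of-ratios scaling 6 were higher (24%, beside 15.8%) and the median was 0.38. Under the locus span correction 3 were higher (12%, beside 12.2% of all genes), 1 was lower and the median was -0.12. Among AP-1 factors and the cytokine and growth factor signals that act on metalloproteinase promoters, 8 of 18 tested genes rose (44.4%, beside 25%), 2 fell (11.1%, beside 2.96%) and the median was 0.61. FOSL2 rose by 3.49 ± 0.35, IL1R1, a receptor of interleukin-1, by 2.42 ± 0.33, FOSB by 2.35 ± 0.39 and TGFBR2, a receptor of transforming growth factor beta, by 2.22 ± 0.23. TGFB1 and IL1B, which encode ligands of these receptors, fell, with changes of -1.23 ± 0.14 and -1.11 ± 0.31 (adjusted p = 0.00795 for IL1B). Of the 18 genes 12 had positive and 6 negative changes. Among the negative ones were JUND (-0.98 ± 0.15, adjusted p = 0.000128 from limma), RELA (-0.31 ± 0.07) and JUN (-0.28 ± 0.07). The summed FPKM of the list lay wholly lower at 11 weeks, with 328 to 390 against 450 to 514 at 7 weeks. With the locus span correction 5 of this list were higher and 1 was lower, beside 12.2% and 4.51% of all genes. Median-of-ratios scaling gave 6 higher and 3 lower (33.3% and 16.7%, beside 15.8% and 10.4%). Quantile normalization gave 5 and 2 (27.8% and 11.1%, beside 10.6% and 8.82%).

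**Figure D4:**
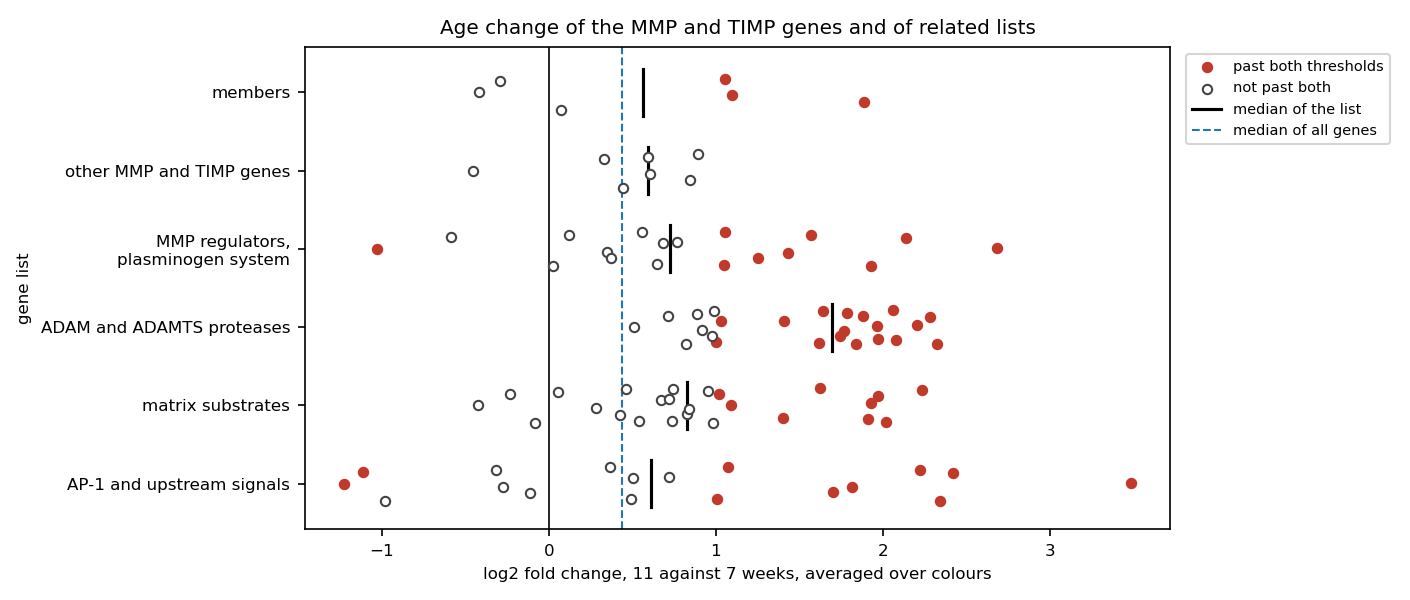
Log2 fold change of 11 weeks against 7 weeks averaged over the colours (x axis) for each tested gene of 6 gene lists (y axis), with filled points past both thresholds, open points not past both, a bar for the median of the list and the median of all genes dashed at 0.44. The ADAM and ADAMTS list has a median of 1.69 and the list of the 6 tested genes among the 9 has 0.56, and both medians move with the scaling, to 0.73 and -0.00058 under the locus span correction.

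The age change of a gene went with the span of its locus in the genome, introns included. With the tested genes split by span into 4 bins of equal size, the median log2 fold change was -0.21 in the bin of the shortest loci (up to 4.95 kb), 0.22 and 0.61 in the next bins, and 0.93 in the bin of the longest loci (from 30.4 kb). Of the 3 genes that rose, MMP2 (34.7 kb) and TIMP3 (32.6 kb) lie in the longest bin, where 45.7% of genes were called higher. MMP27 spans 7.96 kb, TIMP2 7.82 kb and MMP11 8.45 kb, in a bin where 15.3% were called higher. MMP9 spans 4.11 kb. After each library was corrected for span and median, TIMP3 changed by 1.06 (adjusted p = 8.18e-05 from limma), MMP27 by 0.85, MMP2 by 0.20, MMP9 by -0.20, MMP11 by -0.21 and TIMP2 by -0.66.

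**Figure D5:**
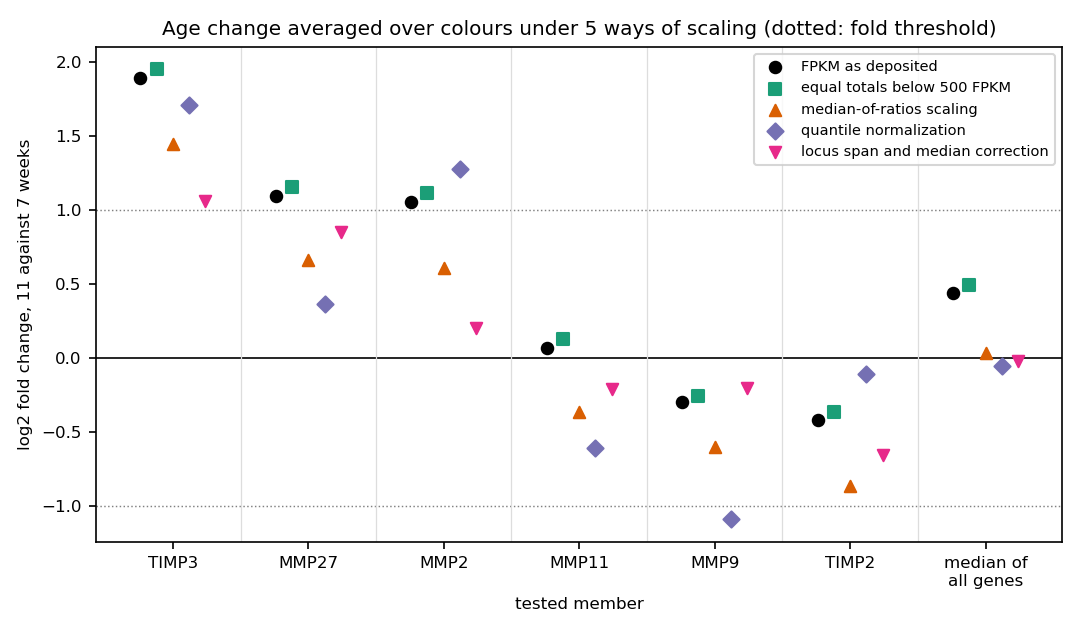
Log2 fold change of 11 weeks against 7 weeks averaged over the colours (y axis) for the 6 tested genes and the median of all genes (x axis), under the deposited scale and 4 other scalings, with the fold threshold dotted. TIMP3 stays above 1 in all 5, MMP2 lies between 0.20 and 1.28, MMP11 lies on both sides of 0 and TIMP2 stays below 0.

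The genes whose log2(FPKM + 0.1) followed each of the 5 more abundant genes most closely over the 12 libraries, among 9130 genes with a symbol and a mean of at least 1 FPKM, are given as a description. For MMP2 they were ARF1 (Pearson r = 0.994), FZR1 (0.991) and GALNT1 (0.989). For TIMP3 they were SLC7A1 (0.992), LARS2 (0.987) and TECPR1 (0.985), and for MMP27 they were POLE (0.948), PLAA (0.944) and NBEAL2 (0.943). For TIMP2 they were PAOX (0.968), XKR8 (0.963) and AP3S2 (0.954), and for MMP11 they were MAPK8IP2 (0.922), CD48 (0.916) and CERS5 (0.896). The points share library, age and scaling, and the genes are not independent.

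Markers of the cells that could hold these RNAs were followed in the same libraries. In bulk tissue, fewer cells of a type and less RNA per cell cannot be told apart. All 8 dermal fibroblast markers were found, none at 0, and their summed FPKM were 1263 to 2978 in yellow follicles of 11 weeks and 1295 to 2172 in those of 7 weeks. In white follicles they were 1816 to 2293 at 11 weeks and 1624 to 1946 at 7 weeks. The ages overlapped, and 1 of the 8 rose on the deposited scale (beside 25% of all genes). Under quantile normalization 4 of the 8 were higher (50%, beside 10.6%), with a median of 0.74. With equal totals 3 were higher (37.5%, beside 26.6%), and with median-of-ratios scaling 1 was (12.5%, beside 15.8%). The span correction left 1 higher and 1 lower (12.5% each, beside 12.2% and 4.51%). The sum of 5 endothelial markers was 29.5 to 46.0 at 11 weeks and 19.5 to 27.7 at 7 weeks in yellow follicles, and 24.8 to 28.0 at 11 weeks and 18.7 to 20.5 at 7 weeks in white follicles. This sum was thus higher at 11 weeks within each colour, as MMP2 and TIMP3 were. Of the 5 genes, 1 (20%) was called higher on the deposited scale, below the 25% of all genes, and 0 under median-of-ratios scaling, quantile normalization and the span correction, where their median was 0.44, 0.04 and -0.02. The part of these cells in the changes of MMP2 and TIMP3 was not tested. The 7 macrophage and osteoclast markers summed to 83.8 to 161 FPKM at 11 weeks and 138 to 217 FPKM at 7 weeks in yellow follicles. In white follicles they summed to 110 to 135 FPKM at 11 weeks and 166 to 226 FPKM at 7 weeks. Single markers went both ways over both colours, with 2 positive and 5 negative changes. Of the 7, 1 (CSF1R, 1.21 ± 0.22) was called higher (14.3%, beside 25% of all genes) and 0 lower. Of the other lists, counted as higher and lower in the age change (25% and 2.96% of all genes), smooth muscle and pericyte markers had 2 and 1 of 7, heterophil markers 3 and 0 of 7, T cell markers 0 and 0 of 3, B cell markers 1 and 0 of 2, basal keratinocyte markers 2 and 1 of 6, and feather and differentiated keratinocyte markers 0 and 0 of 8. Melanocyte markers had 1 and 2 of 7, Schwann cell markers 1 and 0 of 6, red blood cell markers 0 and 2 of 3, adipocyte markers 0 and 0 of 4, striated muscle markers 0 and 0 of 3, and cell cycle genes 0 and 0 of 9.

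The libraries of the 2 ages also differed as a whole. Summed FPKM were 640571 to 711831 at 11 weeks and 700237 to 830214 at 7 weeks. Genes at 500 FPKM or more in a library held 61.2% to 66.3% of its sum at 11 weeks and 64.3% to 71.7% at 7 weeks. At 11 weeks 11349 to 11634 genes reached 1 FPKM, against 9906 to 10666 at 7 weeks. The lowest correlation of a library with a library of its own group was 0.919 at 11 weeks, between yellow libraries 3 and 4, and 0.966 at 7 weeks. Yellow 11-week library 3 held the lowest TIMP2, the highest TIMP3 and the lowest fibroblast sum of all 12 libraries.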

How the data were processed

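RNA of feather follicles was sequenced in 12 libraries, 3 in each of 4 groups. According to the submitters' processing notes, filtered reads were aligned with TopHat2 and Bowtie2 2.2.3 to GRCg6a and assigned to Ensembl genes with HTSeq 0.6.0. The authors deposited FPKM. Which program computed the FPKM is not given in the sources used here. No counts were used, so precision comes from the spread of libraries.

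FPKM were analysed as log2(FPKM + 0.1) with limma 3.58.1 (R 4.3.3, eBayes with trend), for genes with a mean of at least 0.1 FPKM, with 1 mean per group and all 12 libraries sharing a spread. P-values were adjusted by Benjamini-Hochberg over 14553 genes, and the fit was tested on simulated data. Those data had changes above the fold threshold in a small part of the genes. They held no general shift between the ages and no link with locus span, so they do not bear on calls near the threshold. Single genes were also compared by exact permutation within colours, without adjustment. The members, the lists (6 of genes by role, and 15 of cell type markers and cell cycle genes) and the tests were chosen with earlier results of these data known. Named genes are the 9 members, from each list at most the 4 largest changes in each direction past both thresholds, and the 3 genes most like each member of at least 1 FPKM. LAMB1 is named besides them, as a matrix gene that went the other way, and so are JUND, RELA and JUN of the AP-1 and upstream list.

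The fits were repeated with pseudocounts of 1 and 0.01, without the filter, with a mean of at least 1 FPKM, median-of-ratios scaling, quantile normalization, equal totals below 500 FPKM, eBayes without trend or robust, replicate blocks, a fit per colour, no fold threshold and leaving out each library. The locus span correction, a lowess of each library's deviations on log2 locus span, was added after seeing the data. Symbols are those of the deposited table, and coordinates are of GRCg6a. Sequences of the genes were not used here.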

Additional observations from a re-analysis of the deposited data

How the results depend on the processing

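Over both colours, TIMP3 kept its call and TIMP2 stayed negative under each of the 24 alternatives, while MMP2 kept its call under 20 and MMP27 under 19 of 24. The split of called genes into higher and lower was 3640 and 431 as deposited, 2293 and 1507 under median-of-ratios scaling, 1543 and 1283 under quantile normalization, 3876 and 354 with equal totals, and 1774 and 657 with the locus span correction, where the median of all genes was 0.03, -0.05, 0.49 and -0.02 in turn. Genes called for age over both colours, in yellow and in white follicles numbered 4071, 3592 and 4394, against 10011, 7959 and 8752 without a fold threshold, 2219, 1971 and 2612 with a pseudocount of 1, and 2431, 2038 and 2692 with the span correction, and quantile normalization left 2194 in yellow. For colour, 30 genes became 60 without a fold threshold, 13 with a pseudocount of 1, 16 at a mean of at least 1 FPKM and 2 to 88 when 1 library was left out, the extremes without yellow 7-week libraries 1 and 3. For the interaction, 0 genes became 0 to 2, the 2 without yellow 11-week library 3.

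MMP11 changed sign in the age change over both colours under median-of-ratios scaling (-0.37), quantile normalization (-0.61), the span correction (-0.21) and the bird label block (-0.012), and in yellow follicles under the first 3 (-0.24, -0.55 and -0.096). In white follicles it was 0.089 with equal totals. Leaving out 1 library took MMP11 to between -0.044 and 0.20 over both colours, -0.079 and 0.41 in yellow, -0.096 and 0.10 in white, -0.070 and 0.42 in the interaction and -0.23 and 0.014 for colour, and MMP27 to between -0.50 and 0.025 in the interaction and -0.24 and 0.019 for colour. MMP9 in yellow follicles was -0.046 under median-of-ratios scaling and -0.54 under quantile normalization. For colour MMP9 was -0.027 with a pseudocount of 1, -0.064 and -0.12 under these scalings, -0.066 with the number as a block, and -0.14 to 0.27 when 1 library was left out. MMP2 in yellow follicles was -0.025 with the span correction. The cause was not tested, and none of these results was called in the fit as reported.

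Libraries of 11 and 7 weeks with the same label deviated together with correlations of 0.0964 to 0.267 over 11242 genes in 5 pairs, and in 5 of 5 each library of 11 weeks matched its own number best, a hint from the data and not the design. On the design, the paper counts 12 individuals but also describes 5 white and 5 yellow chickens plucked at several ages. The Dominant white genotypes it lists, only II and Ii, are the same within each of the 5 pairs. These accounts do not settle the pairing. Since 1 pair was below 0.1, the numbers were treated as labels only. With the bird label as a fixed replicate block, 4139, 3463 and 4280 genes were called for age over both colours, in yellow and in white follicles and 0 in the interaction, and MMP2, MMP27 and TIMP3 changed by 1.12, 1.24 and 1.77 over both colours. As a random replicate block (correlation 0.146) it gave 4107, 3689 and 4470 genes, 0 in the interaction and 19 for colour, and the number as a block gave 1 for colour.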

Other observations

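By symbol, 3 neighbours of MMP27 from its family were found on chromosome 1 of GRCg6a. The order was MMP13 (bases 183730974 to 183738566), MMP10 (183766299 to 183772932), MMP1 (183793773 to 183800290) and MMP27 (183804596 to 183812551). Only 13688 of the 24353 genes carry a symbol, and those without were not searched for further neighbours. Of the 4 genes, MMP27 alone reached 1 FPKM, and it did so in all 12 libraries. MMP10, stromelysin-2, had 0.112 to 0.617 FPKM at 11 weeks and 0.0168 to 0.560 FPKM at 7 weeks, and the ages overlapped. TIMP3 lies elsewhere on chromosome 1 (53094946 to 53127580), MMP2 on chromosome 11 (3706911 to 3741657), TIMP2 on chromosome 18 (9760745 to 9768563) and MMP9 on chromosome 20 (10572556 to 10576665).

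After the mean of each group was taken away, the deviations of TIMP2 and TIMP3 were negatively correlated over the 12 libraries (r = -0.50). TIMP2 and MMP11 deviated together (r = 0.52), as did MMP2 and MMP11 (r = 0.49), and MMP2 and TIMP2 hardly did (r = 0.15). These are descriptions over libraries that share their depth and composition, among 15 pairs, without a test. For TIMP2 and TIMP3, a yellow library of the older age had the lowest TIMP2 (102 FPKM) and the highest TIMP3 (48.6 FPKM) of all 12. The library with the highest TIMP2 of its group had the lowest TIMP3 of it in both yellow groups and in white follicles of the older age. In white follicles of the younger age it did not. There the library with the lowest TIMP2 (189.5 FPKM) also had the lowest TIMP3 (7.07 FPKM), though the next TIMP2 value was close, 189.9 FPKM. The correlation without the yellow library of lowest TIMP2 was not computed, so opposite deviations are not shown for every group.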
